A study of Homo sapiens with 2 samples.

Results

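Mitotic spindle, kinetochore and kinase genes were examined in BT549 cells that carry SIK1 constructs. The group comprised 49 genes chosen by name from the 43337 genes of the deposited RPKM table (reads scaled to gene model length and to the assigned reads of the library), and all 49 counted as expressed, with an average of 1 RPKM or more over the pair. BT549 is a human triple-negative breast cancer cell line, and SIK1 is a serine/threonine kinase of the AMPK-related family. One library came from cells labelled with the genotype SIK1_S435D, in which aspartate takes the place of a serine of SIK1, and the other from cells labelled SIK1_WT, which carry the wild-type protein. The series design describes both as overexpression. How the constructs were delivered, whether each line was a pool or a clone, and the time of harvest were not given in the sources used here, and cells without a construct were not analysed here. With 1 library per genotype there was no replicate, no test and no estimate of spread between cultures. Every interval below covers counting error only.

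The libraries held 23520828 assigned reads for S435D and 22366506 for WT. SIK1 stood at 422 RPKM in the S435D library and 380 RPKM in the WT library. The markers of the label were read as a check. ESR1 had 0 reads in the S435D library and 1 read in the WT library, and PGR had 0 in each, which allows up to 3 reads in each. ERBB2 was at 10.05 RPKM in the S435D library and 10.6 in the WT library, and the mesenchymal filament gene VIM at 113 RPKM in the S435D library and 116 in the WT library. The epithelial genes EPCAM (2.11 RPKM in S435D, 2.48 in WT) and CDH1 (0.798 in S435D, 0.651 in WT) were far below VIM.

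Entry into mitosis is driven by CDK1 bound to cyclin A or B, which CDC25 phosphatases activate. Microtubules of the spindle then attach to kinetochores, protein assemblies built on centromeric chromatin, and the spindle checkpoint holds back anaphase until every chromosome is attached. Most of these genes are transcribed mainly in the G2 and M phases, from promoters that often hold CCAAT boxes, bound by NF-Y, and a CHR element, a site of the MuvB complexes. The level of such a gene in a bulk library depends on how many cells are in G2 or M and on how much of its RNA each holds, and these cannot be told apart here.

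The promoters of the 2 members with the highest and the 2 with the lowest RPKM ratio between libraries, taken without a pseudocount, among members averaging at least 5 RPKM, are shown because they bracket the range of the group. ASPM, the member with the highest ratio of all but a lower level, was added after its values were seen. Each run is the 250 bases before the annotated start, 5′ to 3′ on the gene's strand, from RefSeq on GRCh38.p14. Capitals mark CCAAT or its reverse complement ATTGG, and TTTGAA or its reverse complement TTCAAA.
ASPM promoter, chr1:197146670-197146919, minus strand: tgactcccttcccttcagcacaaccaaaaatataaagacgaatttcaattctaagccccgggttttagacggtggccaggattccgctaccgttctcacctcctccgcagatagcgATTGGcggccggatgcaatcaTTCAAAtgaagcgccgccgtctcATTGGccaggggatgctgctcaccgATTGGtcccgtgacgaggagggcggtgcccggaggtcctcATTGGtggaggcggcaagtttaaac
CDC25C promoter, chr5:138338356-138338605, minus strand: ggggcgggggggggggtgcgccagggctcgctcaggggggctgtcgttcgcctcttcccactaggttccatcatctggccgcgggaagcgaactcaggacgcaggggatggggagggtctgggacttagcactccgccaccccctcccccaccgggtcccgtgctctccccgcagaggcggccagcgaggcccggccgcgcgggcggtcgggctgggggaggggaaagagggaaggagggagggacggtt
KIF20B promoter, chr10:89701340-89701589, plus strand: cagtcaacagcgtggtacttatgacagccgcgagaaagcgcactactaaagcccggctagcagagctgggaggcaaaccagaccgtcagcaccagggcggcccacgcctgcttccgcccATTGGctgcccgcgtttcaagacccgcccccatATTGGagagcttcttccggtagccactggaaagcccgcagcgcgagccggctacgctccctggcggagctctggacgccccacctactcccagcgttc
DLGAP5 promoter, chr14:55191586-55191835, minus strand: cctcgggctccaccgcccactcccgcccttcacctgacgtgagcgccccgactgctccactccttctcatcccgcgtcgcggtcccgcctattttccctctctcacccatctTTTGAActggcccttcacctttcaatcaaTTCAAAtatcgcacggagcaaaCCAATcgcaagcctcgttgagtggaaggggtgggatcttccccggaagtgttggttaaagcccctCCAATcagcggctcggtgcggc
CDC25B promoter, chr20:3786701-3786950, plus strand: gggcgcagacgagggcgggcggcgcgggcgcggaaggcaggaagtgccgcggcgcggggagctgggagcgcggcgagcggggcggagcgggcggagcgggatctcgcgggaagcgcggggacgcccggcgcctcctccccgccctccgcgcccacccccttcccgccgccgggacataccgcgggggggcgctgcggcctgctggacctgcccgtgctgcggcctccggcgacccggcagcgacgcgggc
The windows of ASPM and DLGAP5, at opposite ends of the range, both hold CCAAT boxes and TTTGAA, and neither CDC25 window holds a match. RefSeq lists 4 starts for CDC25C and 4 for CDC25B, and for each gene other listed starts hold both kinds of motif. These RefSeq starts can differ from the start of the gene model used for the counts. The windows of CDC25B (model start 3786772), DLGAP5 (55191678) and ASPM (197146694) reach into their gene models, that of CDC25B for most of its length.

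Of the 49 members, 43 had a promoter entry, and AURKA, BUB3, CENPH, CENPM, TPX2 and TTK had none. In the first listed window of 300 bases (250 before the start and 50 after it), TTTGAA or TTCGAA, the core letters of a CHR, occurred on either strand in 31 of 43 members (72.1%), against 13.5% of 15894 windows of protein-coding genes and 40.7% of the 81 windows of a second list of mitotic genes. TTCGAA is its own reverse complement. The other motif, CCAAT or its reverse complement, occurred in 33 of 43 members (76.7%), against 36.4% of all windows and 50.6% of the second list. Both kinds were present in 26 members (60.5%), against 5.58% of all windows and 27.2% of the second list, and 21 members held at least 2 CCAAT matches (48.8%, against 12.6%). CDC25B, CDC25C, CENPE, CENPI and KIF2C held neither. Over all matches in members, the CCAAT motif lay at a median position of -74.5 bases relative to the start and the CHR-type motif at -23 bases, and 2 pairs of a CCAAT and a CHR-type match overlapped. The 26 members with both kinds had a median log2 ratio between libraries of -0.011, and the other 17 had -0.031. A match of letters is a description of these windows and not evidence of a bound site.

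**Figure D1:**
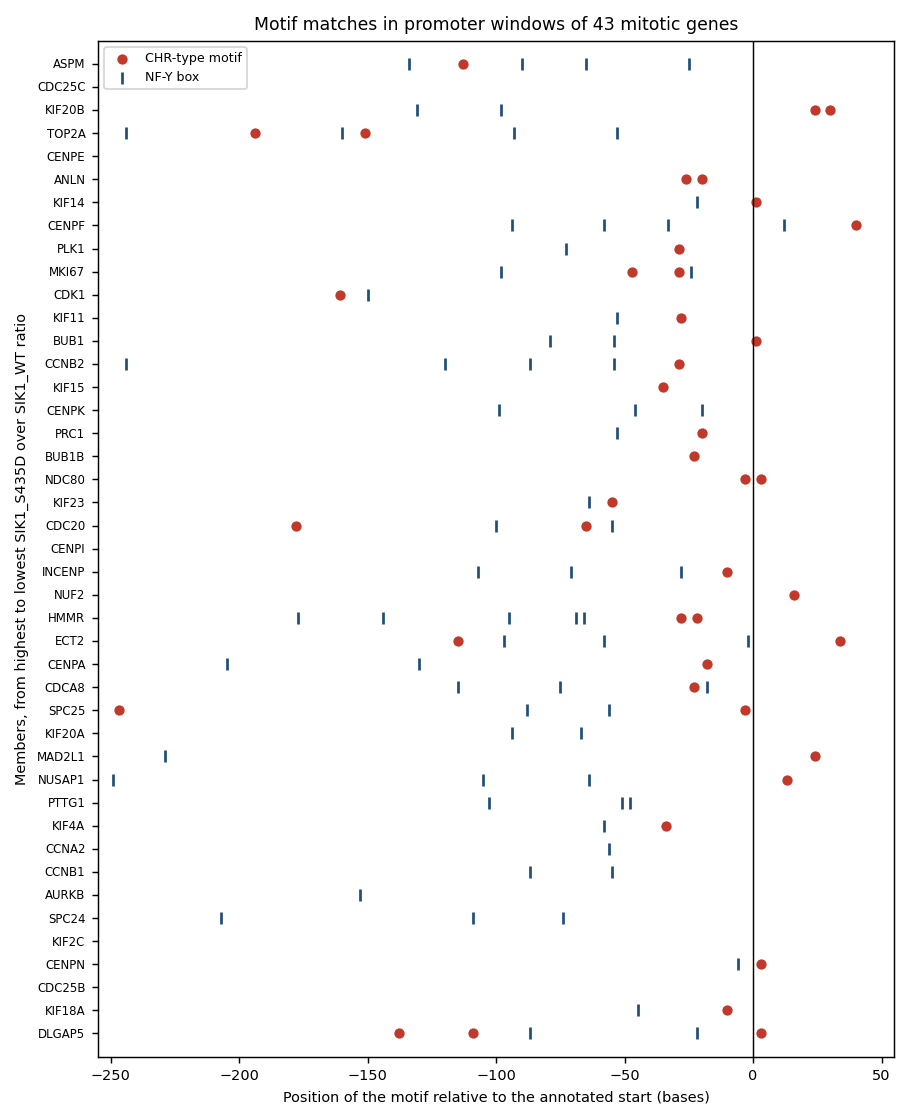
Position of CHR-type motifs (red dots) and of the NF-Y box (blue ticks) relative to the annotated start, in bases, in the promoter windows of the 43 members with an entry. Members run from the highest SIK1_S435D over SIK1_WT ratio at the top (ASPM) to the lowest at the bottom (DLGAP5). The NF-Y boxes lie mostly upstream of the CHR-type motifs, and 26 members show both.

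As a group, the mitotic genes differed little between the libraries. The 49 genes together took 122998 reads in the S435D library, or 0.523% of it (exact 95% binomial interval 0.520 to 0.526), and 116207 reads in the WT library, or 0.520% (0.517 to 0.523), a ratio of 1.007 (0.998 to 1.015). Relative to reads of nuclear genes alone the ratio was 1.015 (1.007 to 1.02). Pooled reads weight genes by length as well as level. The summed RPKM of the members, without the weight of length, was 1223 in the S435D library and 1241 in the WT library. Of 49 members, 18 were higher in the S435D library, where 43.4% of 9999 expressed protein-coding genes were, and 31 were lower, where 56.6% of those genes were. Scaling by a trimmed mean, which raises S435D values slightly, split the members into 25 higher and 24 lower and put 5327 of the 9999 genes higher. A log2 ratio was taken after adding 0.5 RPKM to each library's value, so differences of weakly expressed genes are understated, and it had a median of -0.028 over the members and -0.020 over all expressed genes. The quartiles of the members were -0.069 and 0.073, and those of all expressed genes -0.098 and 0.058. At least 1.1-fold higher were 8 members (16.3%), where 12.1% of all expressed genes were, and at least 1.1-fold lower were 3 members (6.12%), where 19.2% were. The other 38 members were closer to equality, and 0 were 2-fold higher or lower, against 0.03% and 0.02% of all expressed genes. Of the 44 members with at least 1000 reads over both libraries, 7 (15.9%) were 1.1-fold higher and 2 (4.55%) lower. Of expressed genes with as many reads, 8% were 1.1-fold higher and 13% lower.

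**Figure D2:**
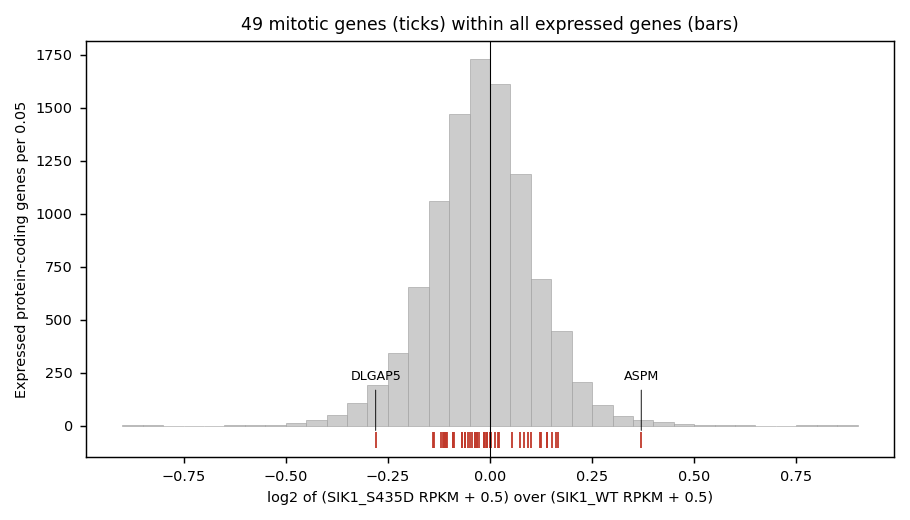
Number of expressed protein-coding genes per 0.05 of log2 ratio (grey bars, S435D over WT, with 0.5 RPKM added to each) and the ratio of each of the 49 mitotic genes (red ticks below the bars). The ticks lie within the body of the distribution, apart from ASPM at 0.37 and DLGAP5 at -0.28.

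By the rule of size used here, a fold of 1.2, ASPM was the only member higher in the S435D library (2.95% of all expressed genes were), and DLGAP5 the only member lower (5.60%). Both are among the 44 members with at least 1000 reads over both libraries, where each is 2.27%. Of expressed genes with as many reads, 0.815% were 1.2-fold higher and 1.68% lower. With trimmed-mean scaling the fold of DLGAP5 was 0.836, short of that rule. The exact 95% counting interval of the ratio lay above 1 for 10 members (20.4%), against 9.73% of all expressed genes. It lay below 1 for 9 members (18.4%), against 15.9%. With trimmed-mean scaling it lay above 1 for 11 of the 49 members, against 15.2% of all expressed genes, and below 1 for 6, against 10.6%. Intervals narrow with reads, and members are well covered. Among the 44 members with at least 1000 reads over both libraries, the 10 above 1 (22.7%) stood against 13.6% of expressed genes with as many reads. The 9 below 1 (20.5%) stood against 20.6%. The 10 genes above 1 were ASPM, CDC25C, KIF20B, TOP2A, CENPE, ANLN, CENPF, PLK1, MKI67 and CDK1. The 9 below 1 were DLGAP5, CDC25B, BUB3, KIF2C, SPC24, AURKB, CCNB1, KIF4A and TPX2. The intervals of BUB3, KIF4A and TPX2 include 1 once trimmed-mean or median scaling is applied, that of TPX2 also with scaling to nuclear genes, and KIF11 lies above 1 with trimmed-mean scaling alone. For the other 30 members the interval included 1 on the deposited scale.

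**Figure D3:**
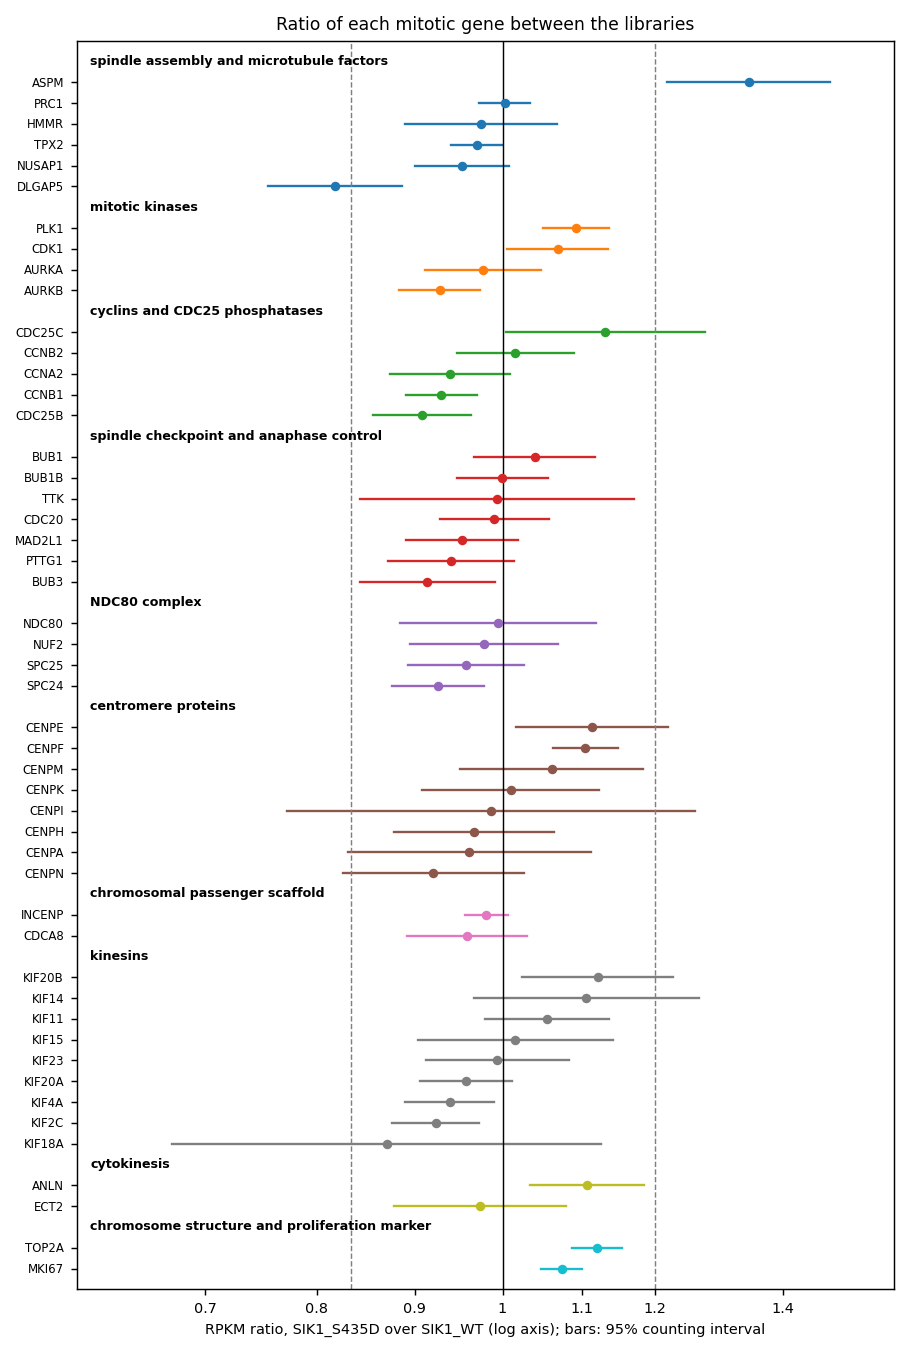
RPKM ratio of each of the 49 mitotic genes, SIK1_S435D over SIK1_WT, on a log axis, by role. Dots are ratios, bars are 95% counting intervals, and dashed lines mark 1.2-fold in each direction. ASPM is the only gene right of the dashed lines and DLGAP5 the only one left of them.

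Levels spanned about the same range in both libraries. INCENP was the most abundant member, at 114 RPKM in the S435D library and 116 in the WT library, followed in both by TPX2 and CCNB1. KIF18A was the least abundant, at 1.08 RPKM in S435D and 1.25 in WT, below CENPI and KIF14 in both libraries. The median member stood at 16.6 RPKM in the S435D library and 17.0 in the WT library. By rank of RPKM, 26 members held the same place in both libraries and no member moved by more than 3 places. RPKM divides by the length of the gene model, all annotated exons merged, so a gene with a long model relative to its main transcript reads low.

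**Figure D4:**
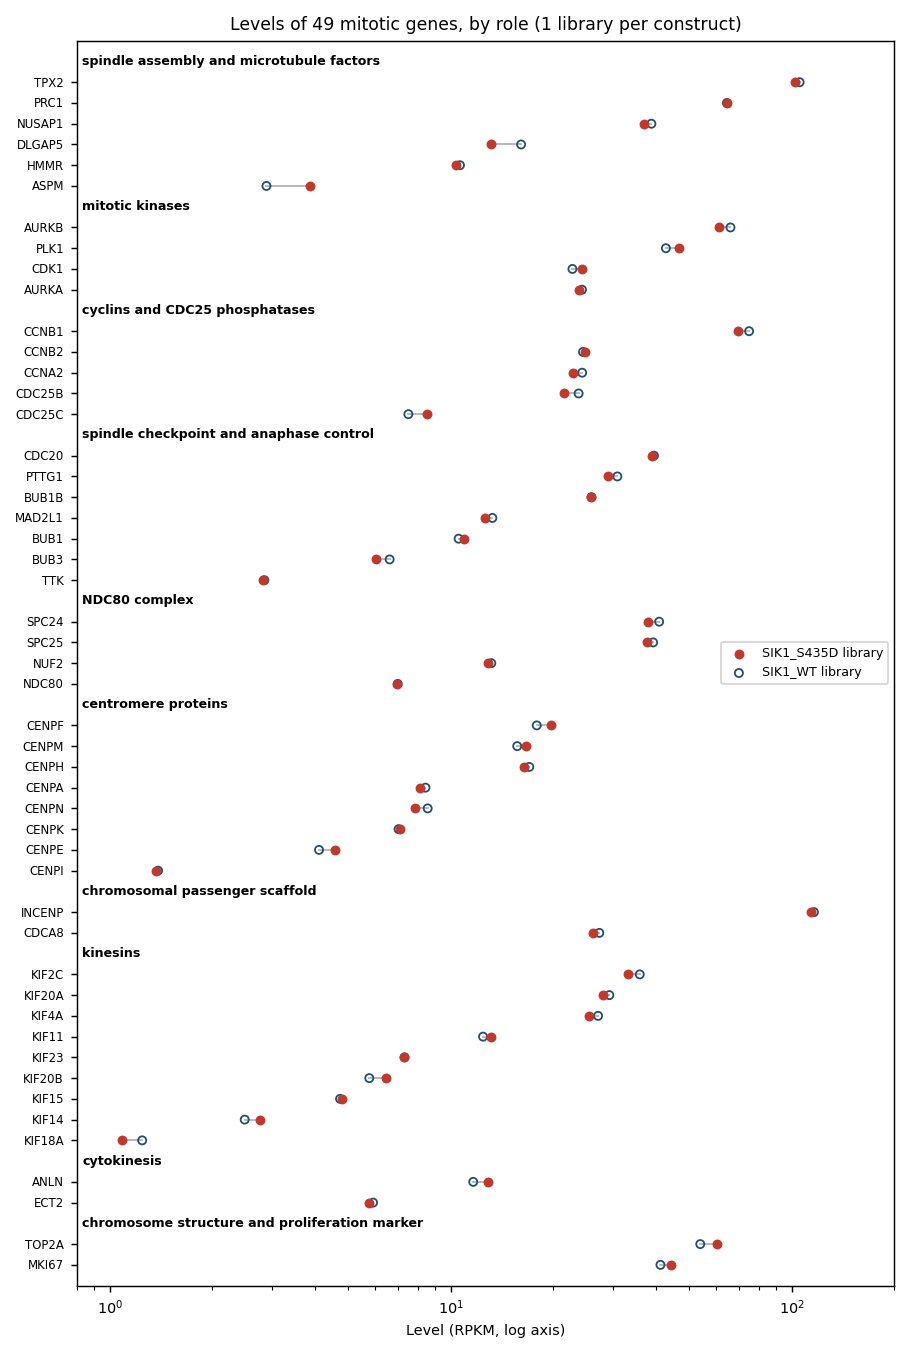
Level of each of the 49 mitotic genes in RPKM (log axis) in the SIK1_S435D library (filled red dots) and the SIK1_WT library (open blue circles), grouped by role and ordered within it. The pairs of symbols nearly coincide for most genes, and those of ASPM and DLGAP5 lie farthest apart.

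The spindle assembly factors held both extremes. ASPM, a protein of spindle poles mutated in primary microcephaly (chromosome 1, 197084128 to 197146694, minus strand), had 996 reads and 3.87 RPKM in the S435D library, against 705 reads and 2.88 RPKM in the WT library. That is a fold of 1.34 (1.22 to 1.48), a log2 ratio above that of 99.5% of expressed genes. DLGAP5, also called HURP, which stabilises microtubules near chromosomes (chromosome 14, 55148112 to 55191678, minus strand), had 1135 reads and 13.2 RPKM in the S435D library, against 1319 reads and 16.1 RPKM in the WT library. Its fold was 0.818 (0.755 to 0.887). Set against each other, the ASPM to DLGAP5 ratio of RPKM was 0.294 in the S435D library and 0.179 in the WT library, a pair chosen for its difference. TPX2, which activates Aurora A on spindle microtubules, was at 102 RPKM in S435D and 105 in WT, an interval of 0.941 to 0.999 that ends just below 1 and reaches 1.02 with trimmed-mean scaling. The remaining factors were close to equal. PRC1, which bundles antiparallel microtubules of the central spindle, was at 64.7 RPKM in S435D and 64.6 in WT, and NUSAP1, a microtubule-bundling protein, at 36.9 in S435D and 38.8 in WT. Both share over 50% of their transcript sequence, read in words of 50 bases, with another GENCODE gene. The deposited values do not list that gene by name, and whether the sharing affects the levels was not tested. PRC1 also shares 7.35% of its exon bases with PRC1-AS1 on the other strand, which held 1029 reads in S435D and 1087 in WT. HMMR, a microtubule-associated hyaluronan receptor, stood at 10.37 RPKM in S435D and 10.6 in WT.

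Among the mitotic kinases, PLK1 and CDK1 were higher and AURKB lower in the S435D library. PLK1, which acts from mitotic entry to cytokinesis, had 46.7 RPKM in the S435D library and 42.8 in the WT library (fold 1.09, 1.05 to 1.14). CDK1, the kinase that drives mitosis, had 24.3 RPKM in S435D and 22.7 in WT (1.07, 1.01 to 1.14). AURKB, the catalytic subunit of the chromosomal passenger complex, had 61.3 RPKM in S435D and 66.1 in WT (0.927, 0.883 to 0.974). AURKA, its paralogue at spindle poles, was at 23.7 RPKM in S435D and 24.3 in WT, with an interval that includes 1. PLK1 shares 11.6% of its exon bases with CTD-2196E14.5 on the other strand, which held 386 reads in S435D and 308 in WT.

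The cyclins that bind CDK1 were lower or close to equality. CCNB1 (cyclin B1) stood at 69.7 RPKM in the S435D library and 74.98 in the WT library (fold 0.929, 0.890 to 0.970). CCNA2 (cyclin A2) was at 22.8 RPKM in S435D and 24.3 in WT, and CCNB2 (cyclin B2) at 24.8 in S435D and 24.4 in WT, and both intervals include 1. RPKM of CDK1 over the sum of these cyclins was 0.207 in S435D and 0.184 in WT, with no counting interval computed. The CDC25 phosphatases differed in opposite directions. CDC25C had 8.50 RPKM in S435D and 7.51 in WT (1.13, 1.004 to 1.27), on 609 reads in S435D and 512 in WT, and CDC25B had 21.5 RPKM in S435D and 23.7 in WT (0.908, 0.856 to 0.963). CDC25C shares 9.62% of its exon bases with FAM53C on the other strand, which held 1325 reads in S435D and 1264 in WT, more than CDC25C itself. CCNA2 shares 9.08% with EXOSC9 on the other strand, which held 1477 reads in S435D and 1581 in WT, close to the reads of CCNA2 itself.

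The checkpoint and anaphase genes lay close to equality, with folds from 0.914 to 1.04. Of the 7, 6 were lower in the S435D library as deposited and 3 with trimmed-mean scaling, under which CDC20, BUB1B and TTK turned above equality. Of all expressed genes, 56.6% were lower as deposited, and 4672 of 9999 with trimmed-mean scaling. BUB3, a scaffold of the checkpoint, had 6.05 RPKM in S435D and 6.62 in WT, and its interval (0.843 to 0.991) alone among these genes left out equality on the deposited scale. With trimmed-mean scaling that interval was 0.862 to 1.01 and included it. BUB1, a kinetochore kinase and the gene above equality on the deposited scale, was at 11.0 RPKM in S435D and 10.5 in WT. BUB1B, which encodes BUBR1, had the same 25.9 RPKM in both libraries. It shares 10.2% of its exon bases with BUB1B-PAK6, which held 107 reads in S435D and 93 in WT. MAD2L1 (MAD2, which binds CDC20) was at 12.6 RPKM in S435D and 13.2 in WT, and TTK (MPS1, the kinase that starts checkpoint signalling) at 2.82 in S435D and 2.84 in WT. CDC20, the activator of the anaphase-promoting complex, stood at 39.1 RPKM in S435D and 39.4 in WT. PTTG1, the securin that inhibits separase, stood at 28.96 RPKM in S435D and 30.8 in WT.

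All 4 subunits of the NDC80 complex, the main microtubule coupler of the kinetochore, had folds just below 1 on the deposited scale. On that scale 56.6% of all expressed genes were below 1. NDC80 itself turned just above 1 with trimmed-mean or median scaling. NDC80 was at 6.96 RPKM in S435D and 6.99 in WT, NUF2 at 12.9 in S435D and 13.2 in WT, SPC25 at 37.6 in S435D and 39.2 in WT, and SPC24 at 37.8 in S435D and 40.9 in WT. Only SPC24 had an interval below 1 (0.876 to 0.978). The subunits form 2 dimers. The SPC24 and SPC25 genes together had 3.80 times the RPKM of NDC80 and NUF2 together in S435D and 3.97 times in WT. These ratios depend on the gene model lengths, and no counting interval was computed for them. Of the 50-base words of SPC25 transcripts, 2.65% recur in ETFB (4113 reads in S435D, 3866 in WT) and 2.33% in RBM28 (5558 in S435D, 5225 in WT). Whether such sharing affects the level of SPC25 was not tested.

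Centromere proteins split evenly, with 4 higher and 4 lower in the S435D library (5 and 3 with trimmed-mean scaling). Of all expressed genes, 43.4% were higher and 56.6% lower on the deposited scale. The 2 centromere genes with intervals above 1 were the 2 longest. CENPF, a large protein of the outer kinetochore, had 19.7 RPKM in S435D and 17.9 in WT (fold 1.104, 1.06 to 1.15). CENPE, a kinesin that moves chromosomes to the spindle equator, had 4.57 RPKM in S435D and 4.11 in WT (1.11, 1.02 to 1.22). The others had intervals that include 1. CENPA, the centromeric variant of histone H3, was at 8.10 RPKM in S435D and 8.43 in WT. It shares 6.96% of its exon bases with SLC35F6 on the same strand, which held 310 reads in S435D and 323 in WT. Of the constitutive centromere network, CENPM was at 16.6 RPKM in S435D and 15.7 in WT, CENPK at 7.10 in S435D and 7.03 in WT, CENPH at 16.4 in S435D and 17.0 in WT, and CENPI at 1.37 in S435D and 1.39 in WT. CENPN, which reads CENPA nucleosomes, was at 7.88 RPKM in S435D and 8.56 in WT. It shares 12.8% of its exon bases with CMC2 on the other strand. CMC2 held 946 reads in S435D and 908 in WT, more than the 661 and 683 of CENPN. The passenger complex genes INCENP and CDCA8 were below equality with intervals that include 1, while the interval of AURKB, given above, lay below 1. INCENP, the scaffold, which trimmed-mean scaling turned above equality, had a fold of 0.981 (0.956 to 1.01) on 11988 reads in S435D and 11622 in WT, and CDCA8, which encodes borealin, was at 26.1 RPKM in S435D and 27.3 in WT.

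Of the 9 kinesins, 4 were higher and 5 lower in the S435D library, where 43.4% of all expressed genes were higher and 56.6% lower. KIF23 moved to the higher side with trimmed-mean scaling. KIF20B, a motor of late cytokinesis, had 6.47 RPKM in S435D and 5.77 in WT (fold 1.12, 1.02 to 1.23). KIF2C (MCAK), a microtubule depolymerase, had 33.1 RPKM in S435D and 35.8 in WT (0.923, 0.876 to 0.972), and the chromosome motor KIF4A had 25.4 in S435D and 27.0 in WT (0.939, 0.890 to 0.990, and 0.910 to 1.01 with trimmed-mean scaling). For the other 6 the interval includes 1 on the deposited scale. KIF11 (Eg5), which slides spindle poles apart, was at 13.1 RPKM in S435D and 12.4 in WT, with a lower bound of 1.0007 under trimmed-mean scaling. KIF15, which can share that task, was at 4.81 RPKM in S435D and 4.74 in WT. KIF14, a motor of cytokinesis, was at 2.75 RPKM in S435D and 2.49 in WT, and KIF23, the motor of centralspindlin, at 7.27 in S435D and 7.32 in WT. KIF20A (MKLP2) was at 27.9 RPKM in S435D and 29.2 in WT. KIF18A, which dampens chromosome oscillation, rests on 119 reads in S435D and 130 in WT, so a difference of its size (fold 0.870, 0.673 to 1.12) was not detectable at this depth.

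The cytokinesis, chromosome and proliferation genes followed. ANLN, the actin-binding anillin of the cleavage furrow, had 12.9 RPKM in S435D and 11.6 in WT (fold 1.11, 1.03 to 1.18), and ECT2, the exchange factor that activates RhoA there, had 5.76 in S435D and 5.92 in WT. TOP2A, the topoisomerase that untangles sister chromatids, had 60.4 RPKM in the S435D library and 53.9 in the WT library (1.12, 1.09 to 1.15). MKI67, which encodes the proliferation marker Ki-67 that coats mitotic chromosomes, had 44.2 RPKM in S435D and 41.2 in WT (1.07, 1.05 to 1.101), on 13327 reads in S435D and 11805 in WT, the most reads of any member in either library.

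A choice of 5 paralogue pairs among the members was compared within each library, and not every related pair was included. CDC25C stood at 0.395 of the RPKM of CDC25B in S435D and at 0.317 in WT, a ratio of ratios of 1.25 (exact 95% conditional interval 1.09 to 1.42). KIF20B stood at 0.232 of KIF20A in S435D and at 0.198 in WT (1.17, 1.05 to 1.302). CCNB1 was 2.81 times CCNB2 in S435D and 3.07 times in WT (0.915, 0.842 to 0.994). For AURKA over AURKB (0.387 in S435D, 0.367 in WT) and BUB1 over BUB1B (0.424 in S435D, 0.408 in WT) the intervals of the ratio of ratios, 0.968 to 1.15 and 0.949 to 1.14, include 1. These ratios do not depend on the scaling between libraries.

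Members with long gene models were mostly higher in the S435D library, a split made after the values were seen. Of the 11 members with a model of at least 6000 bases, 9 were higher in the S435D library and 7 had a counting interval above 1, with a median log2 ratio of 0.14. BUB3 and KIF23 were the lower ones, KIF23 on the deposited scale but not with trimmed-mean scaling. Of the 38 shorter members, 9 were higher and 29 lower (15 and 23 with trimmed-mean scaling), and their median was -0.041. Across the 49 members, Spearman's rho of log2 ratio and length was 0.464 and Pearson's r 0.562, a description over genes that come from the same pair of libraries and differ in base composition. Over all expressed protein-coding genes of at least 6000 bases, 45.3% of 3449 were higher, 54.7% were lower, 10.6% had an interval above 1, and the median was -0.012. Below that length 42.4% were higher, 57.6% were lower, 9.27% had an interval above 1, and the median was -0.024. Among 1864 such long genes with GC content within the range of the long members the median was -0.0078. The part of transcript length or base composition in the members' ratios was not tested.

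**Figure D5:**
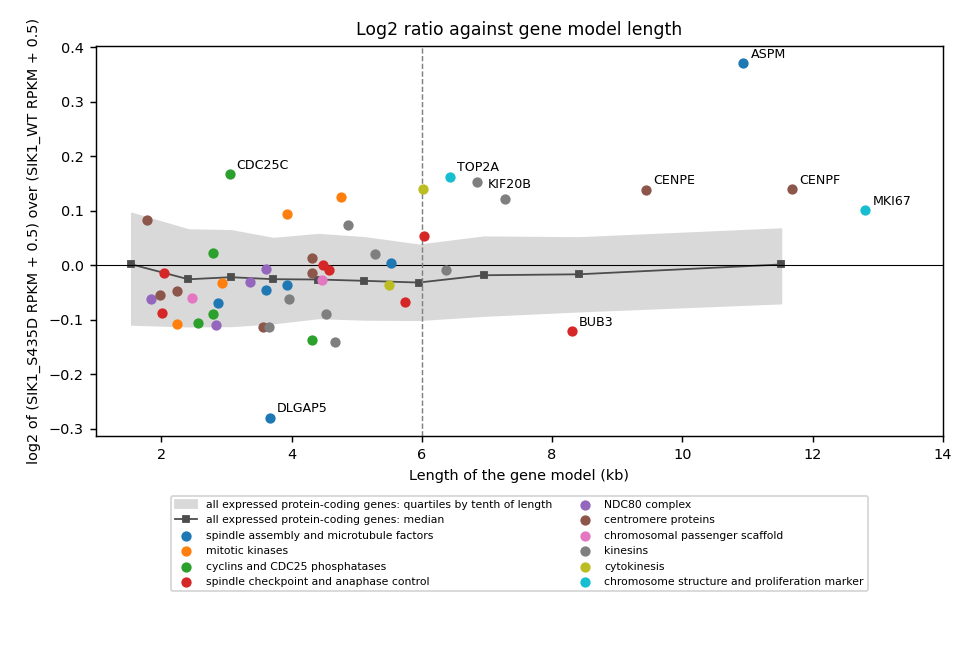
Log2 ratio (S435D over WT, 0.5 RPKM added to each) against length of the gene model in kb for the 49 members, coloured by role, over the median (squares) and quartiles (grey band) of all expressed protein-coding genes in 10 bins of length. The dashed line marks 6 kb. Members right of it lie mostly above the band, while the median of all genes stays near 0 at every length.

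The second list of 95 mitotic genes was drawn up by function, with earlier results of these data known. It was read beside the members, and 94 of its genes were expressed. Of these 94, 40 were higher in the S435D library and 54 lower (48 and 46 with trimmed-mean scaling), and their log2 ratios had a median of -0.027. Of all expressed genes, 43.4% were higher and 56.6% lower (5327 and 4672 of 9999 with trimmed-mean scaling). The counting interval lay above 1 for 10 of the 94 (10.6%) and below 1 for 19 (20.2%), against 9.73% and 15.9% of all expressed genes. Among the 24 with long gene models, 10 were higher and 14 lower (14 and 10 with trimmed-mean scaling), and the median was -0.0054. By log2 ratio with 0.5 RPKM added to each library's value, the 4 highest were SGO2, a protector of centromeric cohesion (2.72 RPKM in S435D, 2.17 in WT), CKAP2L, a spindle protein (3.33 in S435D, 2.72 in WT), MYBL2 and LIN54. MYBL2, which encodes the transcription factor B-MYB, had 246 RPKM in the S435D library and 214 in the WT library (fold 1.15, 1.12 to 1.17), and LIN54, the MuvB subunit that binds the CHR, had 1.80 in S435D and 1.51 in WT (1.19, 0.998 to 1.42). The 4 lowest on that scale were CDC26, a subunit of the anaphase-promoting complex (43.8 RPKM in S435D, 54.9 in WT), and the centromere genes CENPC (1.25 RPKM in S435D, 1.55 in WT), CENPP (1.91 in S435D, 2.35 in WT) and CENPW (74.9 in S435D, 86.6 in WT). Genes of the anaphase-promoting complex and its partners were lower in 15 of 19 cases (13 with trimmed-mean scaling), with a median of -0.080. That was the lowest median among the 7 roles of this list. Of all expressed genes, 56.6% were lower as deposited, and 4672 of 9999 with trimmed-mean scaling. The 21 other spindle and cytokinesis genes were more often higher, with 13 higher and 8 lower (14 and 7 with trimmed-mean scaling) and a median of 0.016. Among all expressed genes 43.4% were higher as deposited, and 5327 of 9999 with trimmed-mean scaling. The 11 G2/M transcription factor genes split into 5 higher and 6 lower (6 and 5 with trimmed-mean scaling). In the same order, the 15 other inner kinetochore genes split into 6 and 9 (7 and 8). A further 12 kinetochore or checkpoint genes split into 4 and 8 (6 and 6). The 7 genes of the passenger, KNL1 and MIS12 complexes split into 4 and 3 (4 and 3), and the 9 mitotic entry genes into 4 and 5 (5 and 4).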

How the data were processed

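RNA was sequenced from 1 library per SIK1 construct. The deposited values are RPKM per gene with the exons and length of each gene model, per the file headers. The aligner, counter, strand setting, build and annotation were not given in the sources used here. All 49 members had the start and end of GENCODE release 29 (GRCh38). Multiplying RPKM by length gave whole multiples of the value of 1 read, so reads were recovered, and 100% of values above 0 came out whole within 0.01 reads. The values are therefore relative to the reads assigned to listed genes. Reads on bases shared by several genes may be counted for each of them. Exons of 17 members share bases with another gene that holds reads. Of the 50-base words of GENCODE transcripts of the members, 54.0% of those of NUSAP1 recur in AC087721.2 and 50.7% of those of PRC1 in AC068831.7. The deposited values list neither of these other genes by that name. Of the words of KIF4A, 13.4% recur in KIF4B (1 read in S435D, 2 in WT), and 7.68% of those of CDC20 recur in CDC20P1 (4 reads in each).

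Genes averaging at least 1 RPKM counted as expressed, and the genes set beside the members were also protein-coding in GENCODE or RefSeq. Intervals are exact conditional binomial (Clopper-Pearson, 95%) and the log2 ratio used a pseudocount of 0.5 RPKM. A fold of 1.2 served as the rule of size, since 1 library per group allows no test. All members are named, and of the other list the 4 highest and 4 lowest ratios. Members, roles and lists were chosen with earlier results of these data known. The procedure was tested on simulated data. Alternatives changed the pseudocount, the filter, the scaling, the rule of size, the interval and the treatment of overlapping genes. Python 3.11.15 was used with SciPy 1.17.1, pandas 2.3.3, matplotlib 3.10.9 and numpy 2.4.6.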

Additional observations from a re-analysis of the deposited data

How the results depend on the processing

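The median log2 ratio of the members stayed near 0 under each planned setting, from -0.041 with the 12 members whose span shares no base with another gene that holds reads to 0.0039 with trimmed-mean scaling, which turned its sign. That scaling divides S435D values by a factor whose log2 is -0.032, turned 7 members above 0 (24 then lay below it) and left 0 members 1.2-fold lower. Intervals below 1 numbered 6 with that scaling and 6 with median scaling, against 10.6% and 12.5% of all expressed genes. With scaling to nuclear genes 8 lay below 1, against 15.1%. Intervals above 1 numbered 11, 10 and 10 in the same order, against 15.2%, 13% and 10.3%. Requiring a mean of at least 5 RPKM left 42 members and 0 that were 1.2-fold higher, since ASPM lies below that level. The 12 members without a shared span included 0 that were 1.2-fold higher and 0 lower, with 1 interval above 1 and 4 below, from fewer genes. Of all expressed genes, whatever their overlaps, 9.73% had an interval above 1 and 15.9% below. On the deposited scale 2.95% of them were 1.2-fold higher and 5.60% lower. The shares past the 1.2-fold rule under the other settings are not given here, so these counts of 0 have no matched background. A 1.1-fold rule gave 8 members higher and 3 lower, against 12.1% and 19.2% of all expressed genes. For the 44 members with at least 1000 reads over both libraries it gave 7 and 2, against 8% and 13% of expressed genes with as many reads. With 99% intervals, 6 members lay above 1 and 6 below, and the shares of all expressed genes at that level were not computed. Relative to reads of nuclear genes alone, the pooled reads of the members had a ratio of 1.015 (1.007 to 1.02), which leaves out equality, rather than 1.007 (0.998 to 1.015), and the mitochondrial share was 5.15% in S435D and 4.32% in WT. Keeping only the 11 members of at least 6000 bases, an alternative chosen after seeing the data, gave a median of 0.14. The 245 log2 ratios of single members under another pseudocount or scaling stayed within the gene's own counting interval on the deposited scale, while 3 intervals below 1 came to include it. Leaving out a replicate was not possible with 1 library per group. No paired analysis was possible because each construct has a single library. Depth limits most members to differences of several percent, and KIF18A and CENPI, with the fewest reads, to larger ones.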
